A study of Homo sapiens with 6 samples.

Results

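The promoter regions of 4 splicing factor genes, EFTUD2, SF3B3, SRSF11 and ZRANB2, were examined for binding of the zinc finger transcription factor ZNF335. Each was a fixed hg19 interval: EFTUD2 chr17:42976200-42977500, SF3B3 chr16:70557000-70558400, SRSF11 chr1:70671000-70672100 and ZRANB2 chr1:71546200-71547400. The genes were chosen by the peaks already seen at these intervals, so the presence of a peak there describes the choice and supports nothing further. In all, 4 of the 634 peaks of cells with the tagged wild-type protein (WT) and 5 of the 174 peaks of cells with the tagged R1092W protein (bloto) lay in these intervals. The gene names of the intervals came with this choice, since no gene annotation of hg19 was used here.

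The cells were Jurkat T-REx, a human T cell leukaemia line that carries a tetracycline repressor, so that an introduced gene is switched on by doxycycline. The WT line expressed 3xFLAG-tagged wild-type ZNF335, the bloto line 3xFLAG-tagged ZNF335 with R1092W, and the control line expressed neither. The labels give every sample the same account of stable clones picked for GFP and of overnight doxycycline. Anti-FLAG M2 chromatin immunoprecipitation and sequencing (ChIP-seq) was done once per line, with 1 library per condition and an input library for each. With 1 clone and 1 library per form, the substitution, the clone and the precipitation cannot be told apart, and no difference below has a replicate check or a p-value. The tagged protein was induced from an introduced plasmid, and the design text calls it overexpressed; its level is not in the lists.

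Introns are removed from new transcripts by the spliceosome, which assembles from small nuclear ribonucleoproteins (snRNPs) and many accessory proteins. The U2 snRNP recognises the branch site of an intron with its SF3b complex, and the U5 snRNP holds the exons during both catalytic steps. EFTUD2 is the GTPase of the U5 snRNP and SF3B3 is a large subunit of SF3b. SRSF11 and ZRANB2 are proteins with arginine and serine rich regions that take part in the choice of splice sites. ZNF335 itself is a C2H2 zinc finger protein, and the series concerns its recognition of separate motifs by separate finger arrays.

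The promoter sequences are shown for the genes that RefSeq's table of promoter windows holds, which are EFTUD2, SRSF11 and ZRANB2, because the peaks lie at these promoters and a reader can compare their letters. They are from GRCh38.p14 while the peaks are on hg19, so no summit was placed on them. Each is the 250 bases before an annotated start, in the direction of the gene, with 1 window for each gene although the table holds a second for EFTUD2 and SRSF11: EFTUD2 at chr17:44899446-44899695 on the minus strand, ZRANB2 at chr1:71081036-71081285 on the minus strand and SRSF11 at chr1:70205446-70205695 on the plus strand. Capitals mark the longest run of letters that any pair of these genes shared, on either strand.
EFTUD2: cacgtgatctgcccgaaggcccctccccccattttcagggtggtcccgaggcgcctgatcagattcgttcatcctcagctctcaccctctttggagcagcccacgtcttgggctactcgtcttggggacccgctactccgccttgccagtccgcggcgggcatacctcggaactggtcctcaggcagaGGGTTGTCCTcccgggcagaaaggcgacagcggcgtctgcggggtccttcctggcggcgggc
ZRANB2: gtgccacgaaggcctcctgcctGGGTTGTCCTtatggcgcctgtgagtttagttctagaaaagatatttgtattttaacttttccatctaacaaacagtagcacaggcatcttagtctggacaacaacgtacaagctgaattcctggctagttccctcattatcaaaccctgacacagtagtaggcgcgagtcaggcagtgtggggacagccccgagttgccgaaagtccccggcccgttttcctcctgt
SRSF11: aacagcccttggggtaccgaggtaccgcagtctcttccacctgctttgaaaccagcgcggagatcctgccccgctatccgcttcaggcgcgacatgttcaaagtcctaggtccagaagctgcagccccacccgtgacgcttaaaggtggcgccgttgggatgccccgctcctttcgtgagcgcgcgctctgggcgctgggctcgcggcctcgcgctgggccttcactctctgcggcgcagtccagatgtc

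EFTUD2 and ZRANB2 shared the 10 letters GGGTTGTCCT (reverse complement AGGACAACCC), which lay in the direction of the gene in both. The run began 62 bases before the EFTUD2 start shown and 228 bases before the ZRANB2 start. A search on both strands found it in 26 of the 35116 promoter windows of 300 bases in the table, or 0.074%. The 8-letter word TCAGGCAG (CTGCCTGA on the other strand) was also in both promoters. In EFTUD2 it began 71 bases before the start, so that 1 base separated it from the run. In ZRANB2 it began 59 bases before the start, far from the run. That word was in 2.15% of all windows. The windows of SRSF11 shared no run longer than 9 letters with EFTUD2 and none longer than 8 with ZRANB2, and no word of 8 letters was common to all 3 genes. These words were picked from the sequences themselves, and a match is a description of letters and not a binding site.

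The promoters differed in base composition. The 300-base window of EFTUD2, which adds the first 50 bases after the start, was 67.0% G or C with 28 CpG dinucleotides, and that of SRSF11 64.7% with 28. The ZRANB2 window was 51.3% G or C with 12 CpG. The medians over all windows were 58.7% and 14, so the ZRANB2 window fell below both and the EFTUD2 and SRSF11 windows shown lay above both. The second SRSF11 window in the table was 53.7% G or C, below the median, with 23 CpG.

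Each of these 3 windows overlapped that of a gene on the opposite strand. The EFTUD2 window shown shared 217 bases with that of DNAAF19, the SRSF11 window 216 bases with that of LRRC40 and the ZRANB2 window 212 bases with that of ZRANB2-DT, a long noncoding RNA gene. Of all 27305 genes in the table, 18.9% had a window that overlapped an opposite-strand window of another gene. The nearest RefSeq genes on the 2 sides of SF3B3 are COG4 and IL34. A peak at a shared promoter cannot be assigned to 1 of its 2 genes, so the names of the splicing genes stand here for the region.

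In WT cells each interval held 1 peak, and the peaks differed in height by more than in width. The peak caller's fold is the authors' own and relates the reads at the summit to the local background the caller set for that peak. It was 23.1 at EFTUD2, 15.9 at ZRANB2, 12.9 at SRSF11 and 9.39 at SF3B3. EFTUD2 thus ranked 7th of 634 WT peaks by fold and belongs to the strongest sites of the series, ZRANB2 ranked 45th, SRSF11 87th and SF3B3 168th. The −log10 p-values ran in the same order, with 79.2, 58.5, 43.9 and 23.8. All 4 peaks were wide, at 785, 656, 602 and 795 bp against a median of 286.5 bp over the WT list. SF3B3 had the lowest fold of the 4 and the widest peak.

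The fold and the p-value of a peak together give the number of ChIP reads that cover its summit. In WT, 81 reads covered the EFTUD2 summit at chr17:42976931 (95% Poisson interval 64.3 to 101). ZRANB2 had 73 reads at chr1:71546850 (57.2 to 91.8). SRSF11 had 60 reads at chr1:70671375 (45.8 to 77.2). The SF3B3 summit at chr16:70557592 had 37 reads (26.1 to 51.0), fewer than the lower limits of the other 3. The WT median over all peaks was 26 reads. The intervals cover counting error only, and a summit is the highest point of its own peak.

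In bloto cells every interval had a peak as well, and SF3B3 had 2. The EFTUD2 bloto peak, chr17:42976606-42977101, had a fold of 16.02 and 57 reads at its summit, which was the third-highest read number of the 174 bloto peaks and was shared by 3 peaks. ZRANB2 had chr1:71546491-71547030 with a fold of 7.04 and 39 reads, and SRSF11 had chr1:70671304-70671664 with a fold of 4.75 and 26 reads. At SF3B3 the main peak chr16:70557264-70557926 had a fold of 10.98 and 30 reads, and the second, chr16:70557993-70558138, had 5.65 and 15 reads. By fold SRSF11 stood near the bottom of the bloto list, at rank 162 of 174, while EFTUD2 ranked 11th, SF3B3 48th and ZRANB2 115th.

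Over the whole WT list, 166 of 634 peaks had a bloto peak, which is a background of 26.2% (exact 95% interval 22.8% to 29.8%), and 4 of 4 of these promoters had one. The choice of the genes fixed that count, so nothing is read from it. Tall and wide WT peaks had bloto peaks more often: 144 of the 184 WT peaks with at least 37 reads, the lowest number among the 4, or 78.3%, and 91 of the 108 at least 602 bp wide, or 84.3%. The list of untagged cells held a single peak, at chr11:66189134-66189404 with a fold of 4.59, and 0 of the 4 intervals had a control peak. How deeply the control library was sequenced is not known, so no limit on its signal at these promoters can be given.

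**Figure D1:**
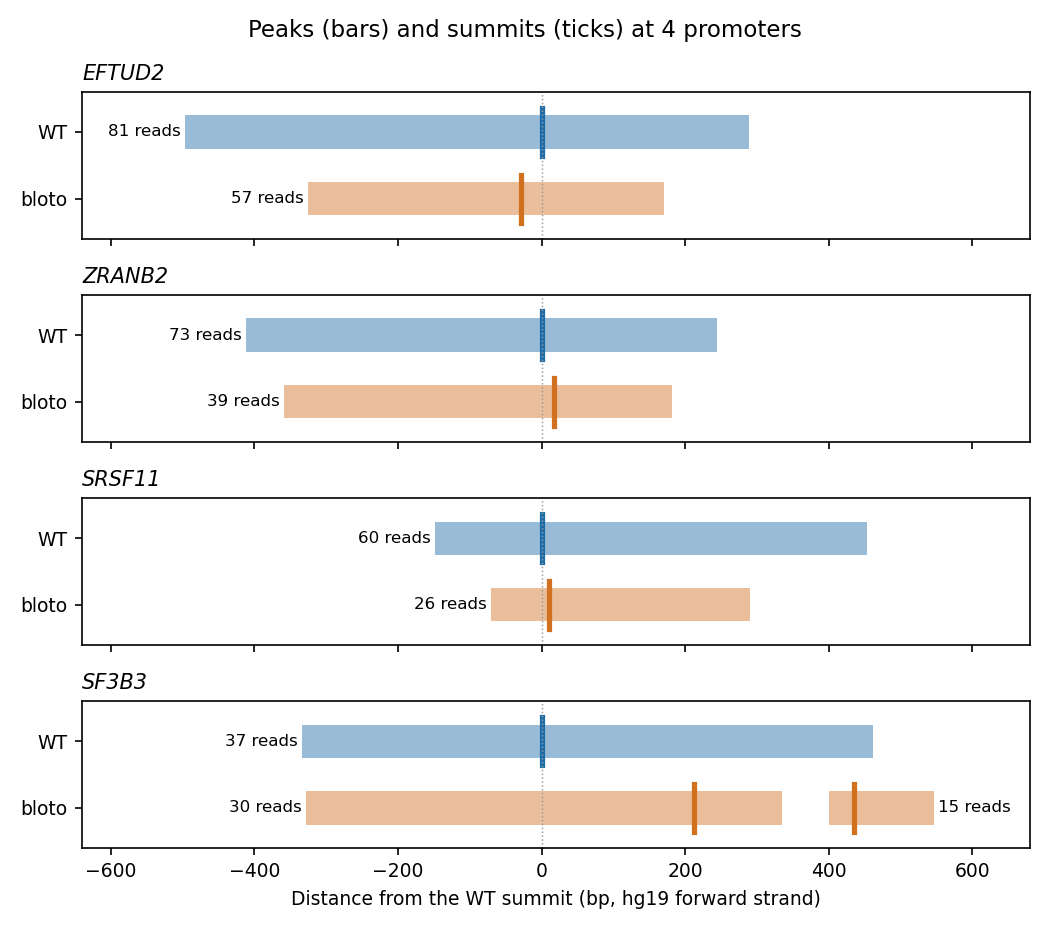
WT (blue) and bloto (orange) peaks at the 4 promoters, as bars over distance from the WT summit in bp along the hg19 forward strand, with ticks at the summits and the recovered reads at each summit. The bloto peaks of EFTUD2, ZRANB2 and SRSF11 lie inside the WT peaks with summits within 29 bp, while SF3B3 has 2 bloto peaks with summits at 212 and 435 bp.

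The change from WT to bloto was measured on reads. The bloto library held 1.07 times the WT reads per kb of genome, so bloto reads were divided by this factor, and each site's local background was subtracted. At EFTUD2 the bloto signal was then 50.8 reads against 78.6 in WT, a ratio of 0.65 (95% interval 0.45 to 0.93). ZRANB2 had 32.1 against 69.5, a ratio of 0.46 (0.29 to 0.71). SRSF11 had 19.9 against 56.4, a ratio of 0.35 (0.19 to 0.60). At these 3 promoters the bloto signal was lower by more than the counting error of the summit reads. The intervals take the depth factor and the backgrounds as exact, which matters most at EFTUD2, with an upper limit of 0.93.

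SF3B3 had the fewest WT reads of the 4, and its ratio did not differ from that of EFTUD2 or ZRANB2 beyond counting error. Its bloto signal was 26.3 reads against 34.1 in WT, a ratio of 0.77 with an interval of 0.45 to 1.32 that holds 1. No difference between the forms was detectable at this depth there, which does not show that they were alike. The deposited fold was even higher in bloto than in WT at SF3B3, 10.98 against 9.39, as at 27 of the 166 sites called in both lists (the shared sites). The local background at SF3B3 was lower in bloto, at 1.70 reads after scaling against 2.90 in WT. In reads, bloto was lower at all 4 promoters and at every other shared site, since 0 of 166 reached a ratio of 1.

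**Figure D2:**
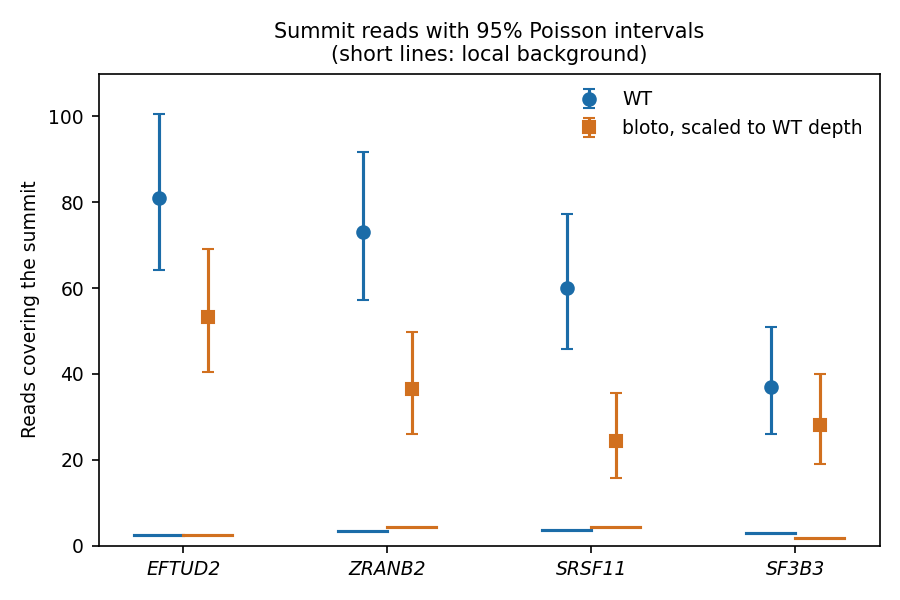
Reads covering the summit of each promoter in WT (blue circles) and bloto (orange squares, scaled to WT depth), with 95% Poisson intervals for counting error and short lines for the local background. WT lies above bloto at each promoter, and the intervals overlap at EFTUD2 and SF3B3 and are apart at ZRANB2 and SRSF11.

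The promoters ordered from most to least reduced were SRSF11, ZRANB2, EFTUD2 and SF3B3. Neighbours in this order did not differ beyond counting error. The ratio at SRSF11 was 0.77 of that at ZRANB2 (95% interval 0.36 to 1.56), the ratio at ZRANB2 was 0.71 of that at EFTUD2 (0.40 to 1.26), and the ratio at EFTUD2 was 0.84 of that at SF3B3 (0.44 to 1.61). Of the 6 pairs, only SRSF11 against SF3B3 had an interval without 1, at 0.46 (0.20 to 0.98). Without subtraction of the background that value was 0.53 (0.26 to 1.08), so the pair rests on the subtraction. The order of the 4 was the same without subtraction.

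Set among all shared sites, the 4 promoters differed widely in rank, but counting error leaves these ranks uncertain. The median ratio over the 166 shared sites was 0.54, with an interquartile range of 0.46 to 0.62. SRSF11 was the 10th lowest, with 9 sites below it, and SF3B3 the ninth highest, with 8 above it. ZRANB2 lay just above the lower quartile and EFTUD2 above the upper one. The counting-error interval of the ratio held the shared median at all 4, with 0.19 to 0.60 at SRSF11 and 0.45 to 1.32 at SF3B3. The ranks therefore do not set any of the 4 apart from the median of the shared sites. The 134 other shared sites with 37 to 81 WT reads, the span of the 4, had a median of 0.54 and ran from 0.24 to 0.80, so each of the 4 values fell within the range of sites of like height. The median of the 4 was 0.55.

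**Figure D3:**
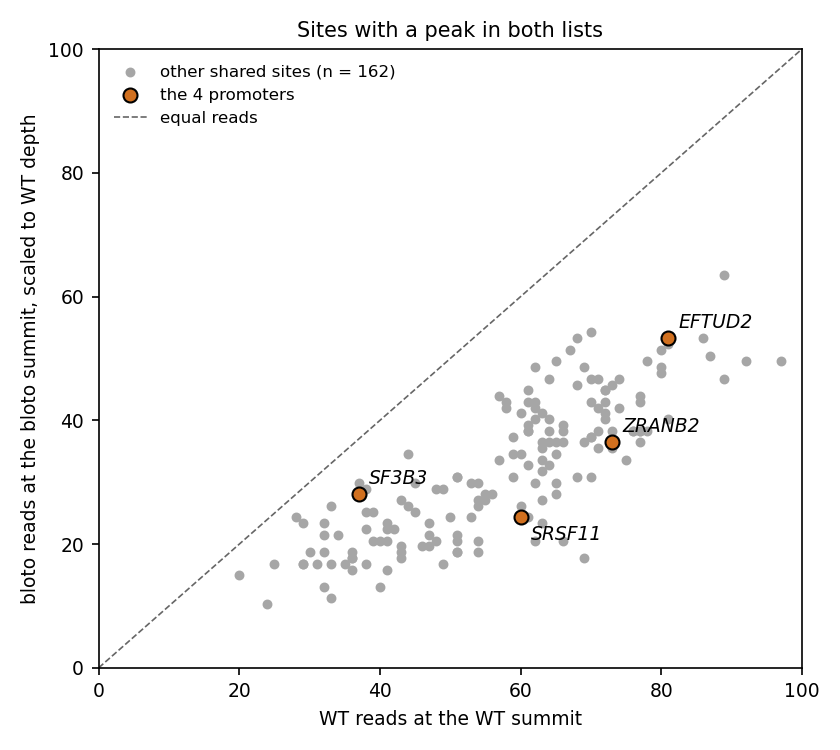
Bloto reads at the bloto summit, scaled to WT depth, against WT reads at the WT summit for the 166 shared sites, with the 4 promoters in orange and a dashed line of equal reads. All points lie below the line. SF3B3, at 37 WT reads, is nearer to it than SRSF11, at 60.

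Among the 4 promoters, the 2 with the lower ratios had the higher local background in bloto relative to WT. After scaling, the bloto background was 1.25 times that of WT at ZRANB2 and 1.22 times at SRSF11, 1.03 times at EFTUD2 and 0.59 times at SF3B3. These ratios come from few reads, 2.39 to 3.58 in WT and 1.70 to 4.38 in bloto after scaling. No counting error was computed for them, so whether the 4 differed in background beyond counting error was not tested. The median over shared sites was 0.79. At SRSF11 and ZRANB2 the bloto background was 3.46 times the genome-wide level and the WT background 2.83 and 2.77 times. This did not extend to the lowest ratios of all shared sites. The 9 sites with a ratio below that of SRSF11 had a bloto background of 0.36 to 0.79 times that of WT. The background is also subtracted in the ratio, so the 2 measures are not independent. The part of the background in the lower bloto signal was not tested, although the ratios without subtraction were 0.41 at SRSF11, 0.50 at ZRANB2, 0.66 at EFTUD2 and 0.76 at SF3B3.

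Summit positions were close at 3 of the 4 promoters. The bloto summit lay 11 bp from the WT summit at SRSF11, 17 bp at ZRANB2 and 29 bp at EFTUD2, against a median of 18.5 bp over shared sites. EFTUD2 was shifted towards lower coordinates and the others towards higher ones. At these promoters the bloto peak lay wholly inside the WT peak and was narrower, by 289 bp at EFTUD2, 241 bp at SRSF11 and 116 bp at ZRANB2. Since a peak ends where its signal falls under the cutoff, a lower signal and a narrower peak are not independent measures.

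At SF3B3 the main bloto summit, chr16:70557804, lay 212 bp from the WT summit. Summits more than 100 bp apart occurred at 13 of the 166 shared sites, or 7.83%, and only 4 sites had a larger distance than SF3B3. The second bloto summit, at chr16:70558027, was 435 bp from that of WT. WT had 1 continuous peak over 795 bp where bloto had 2 peaks with a gap of 66 bp between them. The second bloto peak ran 85 bp past the end of the WT peak, and 61 of its 146 bp lay inside it. As the WT summit is the highest point of the WT peak, WT could have had at most 37 reads at the main bloto summit, and bloto at most 30 at the WT summit. How many reads each library had at the summit of the other is not in the lists, so whether the shape changed or a low broad signal had its highest point elsewhere by counting error was not tested.

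SF3B3 was 1 of 6 WT peaks that overlapped 2 bloto peaks, which is a background of 0.946% of the 634. That share understates how common this was among like sites. All 6 were among the 36 widest WT peaks, of which SF3B3 was the narrowest, and only 166 of the 634 had any bloto peak. With a −log10 q of at least 5 in both lists 3 such WT peaks were left and SF3B3 was not among them, since its second bloto peak had a −log10 q of 4.93. Among those 6 it had the fewest WT reads, 37 against 44 to 76, and the narrowest WT peak, 795 bp against 807 to 1247 bp. At 4 of the other 5 the nearer bloto summit lay 4 to 18 bp from the WT summit, against 212 bp at SF3B3. At the fifth it lay 136 bp away.

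**Figure D4:**
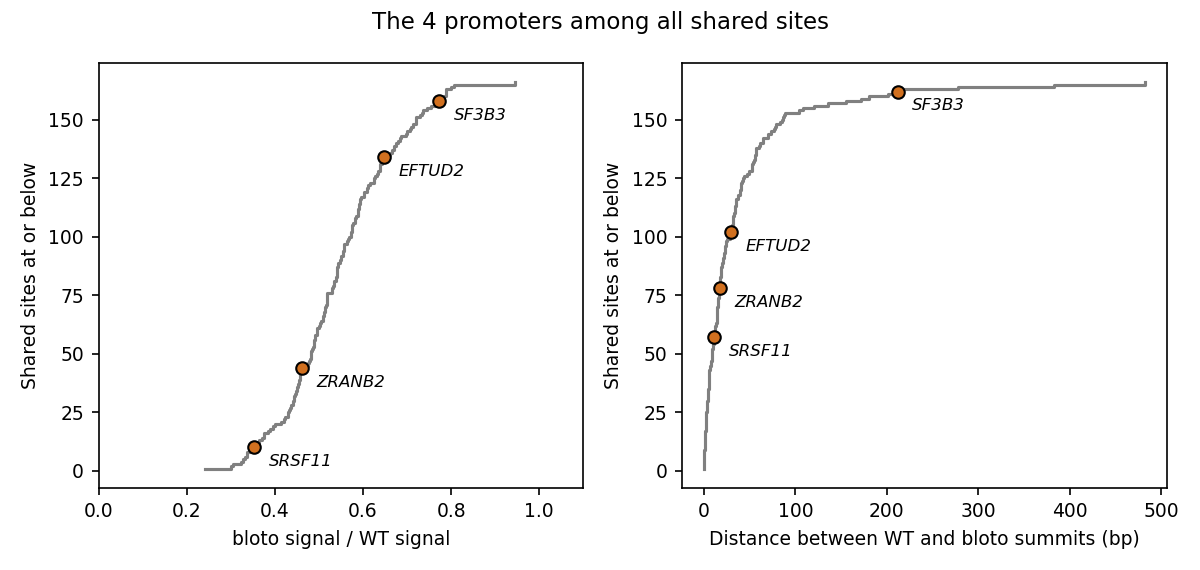
Cumulative number of the 166 shared sites by ratio of bloto to WT signal (left) and by distance between summits in bp (right), with the 4 promoters marked. SRSF11 and SF3B3 lie near the 2 ends of the ratios, at 0.35 and 0.77. The counting-error intervals of these ratios hold the median of the shared sites. SF3B3 alone of the 4 lies far out in distance, at 212 bp.

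SRSF11 and ZRANB2 both lie on chromosome 1, and each was the other's nearest WT peak. Their WT summits were 875 kb apart, with 0 WT and 0 bloto peaks between them. The nearest other WT peak was 161 kb from EFTUD2 and 1336 kb from SF3B3. The pair on chromosome 1 also had the same bloto background of 4.68 reads. Repeated background values are not particular to the pair. The background ratio of 1.25 at ZRANB2 recurs at another shared site on chromosome 1 and at shared sites on chromosomes 2, 14 and 19. The 4 WT peaks were therefore separate sites, and widening each interval by 1000 bp on either side left 4 of 4 intervals with a WT peak and 4 of 4 with a bloto peak.

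Whether other splicing genes had a peak at their promoter was not analysed here, since their hg19 positions were not used. Their promoter letters could be compared. A list of 108 genes of the spliceosome and of SR proteins was written from textbook knowledge and may be incomplete. Of these genes, 97 had a promoter window. Besides EFTUD2 and ZRANB2, 0 of the 94 genes outside the 4 held GGGTTGTCCT, against 25 of all 27305 genes (0.0916%). TCAGGCAG was in 1 of the 94, SNRPD2, which encodes a core Sm protein of the snRNPs. The share of 1.06% stands beside 2.60% of all genes. The other 3 words of 8 letters that EFTUD2 and ZRANB2 shared outside the run did not all lie on that side. CAGGCGCC was in 8 of the 94, or 8.51%, against 4.23% of all genes. GCCAGGAA was in 3, or 3.19%, against 3.19%, and CGAAGGCC in 1, or 1.06%, against 1.14%. Nothing particular to splicing genes is read from these counts.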

How the data were processed

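Peaks were deposited by the authors for the 3 ChIP samples, 1 list each; the 3 inputs have no list of their own here. Per the submitters' processing notes, the build was hg19, and MACS2, BWA and SAMtools (no versions named), cutadapt 1.4.1 and CASAVA 1.8.2 were used; the calling cutoff is not given in the sources used here. Deposited columns that were used are the fold (a ratio over local background), the −log10 p-value and −log10 q-value, the score and the summit offset. Libraries were single-end reads of 50 bp.

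Reads at each summit and the local background were solved from the deposited fold, taken as (reads + 1)/(background + 1), and the p-value, taken as a Poisson upper tail. They came out whole within 0.001 reads in 634 of 634 WT peaks (after a scale of 0.856) and 174 of 174 bloto peaks; 1 peak per list had more than 1 solution. On simulated lists of 196 and 200 peaks made with the same formulas, 100% were recovered, which checks the arithmetic only. The lowest background gave 8.67 WT and 9.28 bloto reads per kb, using 146 bp, the narrowest peak of both lists, as read extension and assuming 1 genome size.

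Overlap meant 1 bp or more. Shares carry exact Clopper-Pearson intervals, reads exact Poisson intervals, and ratios intervals built from the latter with the background held fixed (the MOVER method); all are 95%. Words of 8 letters were searched in RefSeq promoter windows. The genes and lists were chosen with earlier results of these data known; named were the 4 genes, genes sharing their promoter windows and list genes holding a shared word. Planned peak counts at other splicing promoters were not run. Python 3.11.15, numpy 2.4.6, scipy 1.17.1, pandas 2.3.3 and matplotlib 3.10.9 were used.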

Additional observations from a re-analysis of the deposited data

How the results depend on the processing

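Of 43 values recomputed under the planned settings, 41 stayed within the 95% interval of the main value or, for counts, within 1.5 times of it. Several of the 43 could not have moved, so the count is no measure of stability. EFTUD2, SRSF11 and ZRANB2 had 1 bloto peak each, so taking the nearest bloto peak changed nothing. The only control peak was on chromosome 11, and the counts of WT peaks concern the peaks that chose the genes. The 2 values that moved were both the share of all WT peaks with a bloto peak, 26.2% as reported. It was 16.6% with reciprocal overlap of at least 50% and 29.98% with a −log10 q of at least 5 in both lists. The cause was not tested. Among the promoters, SRSF11 lost its bloto peak when a fold of at least 5 was required, and SF3B3 was no longer shared when summits had to lie at most 100 bp apart, which leaves 3 of 4 in each case. With a −log10 q of at least 5 the second SF3B3 bloto peak was lost and the WT peaks with 2 bloto peaks fell from 6 to 3; with a fold of at least 5 SF3B3 kept both and 5 such WT peaks were left (these counts were added after seeing the data). With the deposited folds less 1 in place of reads, the ratio was 0.68 at EFTUD2, 0.41 at ZRANB2, 0.32 at SRSF11 and 1.19 at SF3B3, where it passed 1 within the interval. Without depth scaling the ratios were 0.69, 0.49, 0.38 and 0.83 in that order. No paired analysis was possible because there is a single library for every condition, so leaving out a replicate was not possible either. Read numbers of 15 to 81 at the summits limit every ratio here to the wide intervals given.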

Other observations

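The run GGGTTGTCCT, shared by the EFTUD2 and ZRANB2 promoters, was held by the promoter windows of 25 genes. Besides these and their opposite-strand neighbours DNAAF19 and ZRANB2-DT, 21 genes held it. They include ABHD14A and ABHD14B, CCDC51 and TMA7, C1QBP, a mitochondrial matrix protein, and MTHFD1, an enzyme of folate metabolism. These names were chosen after the matches were seen, and whether the hg19 peaks lie at these genes was not analysed here.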
